A study of Mus musculus with 15 samples.

Results

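The S100 genes encode small calcium-binding proteins, and 10 of them, S100a1, S100a4, S100a6, S100a8, S100a9, S100a10, S100a11, S100a13, S100a14 and S100a16, were followed by their symbols among the 78298 genes listed in the count files of every library. Poly-A RNA had been sequenced from mouse small intestinal organoids in 15 libraries, 3 for each of 5 conditions. All lines were primary cultures transduced with a lentivirus in which the L30 promoter drives the fusion protein together with a puromycin resistance gene, and each condition was 1 stably selected line. The control, Halo-NLS, expressed the HaloTag with a V5 tag and a nuclear localization signal. SOX9-Halo_budding and SOX9-mEGFP_budding expressed SOX9 fused to the HaloTag or to mEGFP and formed budding organoids. SOX9-Halo_spheroid and SOX9-mEGFP_spheroid were the same kinds of line at a later passage, grown as spheroids, and carried a second L30-driven transgene, H2B-mEGFP with Zeo in the former and H2B-mScarletI with Neo in the latter. Morphology, time in culture and the H2B transgene therefore cannot be told apart in any comparison of spheroids with Halo-NLS or with budding organoids. The series text calls the 3 libraries of a condition biological replicates but ties them to no separate animals, so p-values measure the spread between these libraries, which may in part be technical. Reads on Sox9, which do not separate the transgene from the endogenous gene, averaged 529.7 ± 232 normalized counts in Halo-NLS (SD, n = 3) and 6237 to 16434 in the SOX9 conditions, with no overlap between any SOX9 condition and Halo-NLS.

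S100 proteins carry a pair of EF-hand loops that bind calcium, and most act as dimers that change shape with calcium and then grip other proteins, among them annexins, myosins and the giant membrane-linked protein AHNAK. S100A10 is an exception, since its loops no longer bind calcium and it sits in a lasting complex with annexin A2. S100A8 and S100A9 form calprotectin, a zinc-binding antimicrobial complex of neutrophils and monocytes that inflamed epithelium can also make. In the adult small intestine the best known S100 protein is the one encoded by S100g, a vitamin D-dependent calcium buffer of absorptive cells, which is not among the 10 genes and is described further below.

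All 10 genes lie on mouse chromosome 3 (GRCm39, positions from GENCODE M39). Of these, 8 sit within 186.981 kb, in the order S100a13 (chr3:90416091-90431912), S100a1, S100a14 (chr3:90434082-90436144), S100a16 (chr3:90444172-90450462), S100a4 (chr3:90511074-90513354), S100a6 (chr3:90520140-90535843), S100a8 (chr3:90567118-90578128) and S100a9 (chr3:90599931-90603071). S100a11 (chr3:93414382-93435293) and S100a10 (chr3:93462213-93474510) lie 2811.31 kb further on, beyond the genes of the cornified envelope, with 26.92 kb between them. S100a1 (chr3:90418340-90421848) is read on the minus strand inside the span of S100a13, and in GENCODE M39, which may not be the annotation used for counting, 62.2% of the exonic bases of its canonical transcript and 89.2% of all its annotated exonic bases are shared with other genes, mainly with S100a13, while 58.1% of the canonical transcript of S100a13 is shared with S100a1. Since neither the library kit nor the counting kept the strand and reads on shared exons were left uncounted, the counts of S100a1 and S100a13 rest on the unshared parts of each gene. For S100a4, 302 of the 503 bases of the canonical transcript are shared with the gene model Gm42674, which limits its counts in the same way. The other 7 genes share no exonic base with another gene in this annotation.

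The stretches of 250 bases just before the start of transcription are shown for S100a11, which rose most in spheroids against Halo-NLS, and S100a6, which was called in opposite directions in budding organoids and spheroids (RefSeq, GRCm38.p6, plus strand, S100a11 at chr3:93520246-93520495 and S100a6 at chr3:90612644-90612893). Capitals mark matches to the AP-1 motif TGANTCA.
S100a11: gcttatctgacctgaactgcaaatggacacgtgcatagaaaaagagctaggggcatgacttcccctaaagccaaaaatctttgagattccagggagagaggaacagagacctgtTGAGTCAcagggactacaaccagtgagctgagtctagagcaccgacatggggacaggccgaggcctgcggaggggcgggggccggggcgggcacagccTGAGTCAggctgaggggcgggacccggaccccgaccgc
S100a6: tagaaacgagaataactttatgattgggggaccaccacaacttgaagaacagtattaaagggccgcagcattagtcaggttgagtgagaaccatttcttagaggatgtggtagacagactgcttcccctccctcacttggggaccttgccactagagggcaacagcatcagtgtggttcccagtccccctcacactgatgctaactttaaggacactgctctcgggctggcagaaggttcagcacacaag
The S100a11 stretch held TGAGTCA at bases 136 to 130 and again at bases 38 to 32 before the start, whereas the S100a6 stretch held no match to any of the 4 motifs searched on both strands. These were TGANTCA, the SOX core ACAATG or ACAAAG, the TEAD motif GGAATG and the TATA box TATAAA, none of which contains another. RefSeq gave 9 promoters for 8 of the members, with 2 for S100a16 and no entry for S100a10 or S100a14. AP-1 matches stood in 2 of the 9, those of S100a11 and 1 of the 2 of S100a16, compared with 6.749% of all 32851 promoters. A SOX core match stood in the same S100a16 promoter and in 25.24% of all promoters. TATAAA was present in the promoters of S100a4 and S100a8, from 31 to 26 and from 30 to 25 bases before the start, and in 12.37% of all promoters, and GGAATG, found in 12.64% of all promoters, was in none of the 9. The RefSeq starts of S100a1 and S100a13, on opposite strands, were 105 bases apart.

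Libraries held 28062722 to 40559766 reads on genes, with a median of 33491297. Values below are normalized counts, that is counts scaled to a common library size after TMM normalization, and intervals are SD over 3 libraries. A filter on low counts kept 17560 genes and 7 of the 10 members, S100a1, S100a6, S100a10, S100a11, S100a13, S100a14 and S100a16. Each gene was tested with the quasi-likelihood F test of edgeR, p-values were adjusted over all 17560 genes by the method of Benjamini and Hochberg, and a gene was called when its adjusted p was at most 0.01, its log2 fold change at least 1 in size and its mean normalized count at least 10. Epcam, 1 of 10 small intestinal epithelial markers examined, averaged 33336 ± 2342 normalized counts in Halo-NLS, 35334 ± 1834 in SOX9-mEGFP_spheroid and 15463 ± 727 in SOX9-Halo_spheroid. Some of these markers were far lower in SOX9-Halo_spheroid than in Halo-NLS. Mean normalized counts were 90.4 against 14708 for Cdx2, 3955 against 47366 for Vil1, 11.4 against 25825 for Alpi and 10.3 against 8097 for Krt20. They were 6.06 against 1710.0 for Olfm4 and 2.26, or 1 to 4 raw counts per library, against 3613 for Fabp2. Lgr5 (323 against 387) and Krt8 (66745 against 93365) overlapped Halo-NLS, and Cdh1 was higher (28762 against 20609). In SOX9-mEGFP_spheroid means were 2576 for Cdx2, 25761 for Vil1, 628 for Alpi, 3076 for Krt20, 82.4 for Olfm4 and 110 for Fabp2. Lgr5 (1538), Krt8 (150222) and Cdh1 (31393) had higher means there than in Halo-NLS.

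The S100 members took up about the same small part of the reads in Halo-NLS and in both budding lines and a larger part in both spheroid lines. Together the 10 genes held 0.0382 ± 0.0056% of the reads on genes in Halo-NLS, 0.0409 ± 0.0051% in SOX9-mEGFP_budding and 0.0361 ± 0.00087% in SOX9-Halo_budding (SD, n = 3). In SOX9-mEGFP_spheroid they held 0.191 ± 0.013% and in SOX9-Halo_spheroid 0.197 ± 0.011%, and all spheroid libraries lay above all others. The makeup of the member reads, not scaled for transcript length, changed as well. S100a10 was the leading member in all libraries of Halo-NLS and the budding lines, with 58.2 ± 2.0%, 55.4 ± 5.5% and 55.8 ± 6.6% of the member reads in Halo-NLS, SOX9-mEGFP_budding and SOX9-Halo_budding. In every spheroid library S100a11 led instead, with 32.5 ± 5.9% in SOX9-mEGFP_spheroid and 39.7 ± 3.4% in SOX9-Halo_spheroid, while the S100a10 share was 19.8 ± 5.0% and 12.7 ± 0.94%. S100a6 came close behind S100a11 in SOX9-mEGFP_spheroid, at 28.9 ± 3.7%, and S100a14 took 20.3 ± 1.1% in SOX9-Halo_spheroid. Per length of the canonical transcript S100a6, not S100a11, led both spheroid lines among the tested members free of shared exons, as described below.

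**Figure D1:**
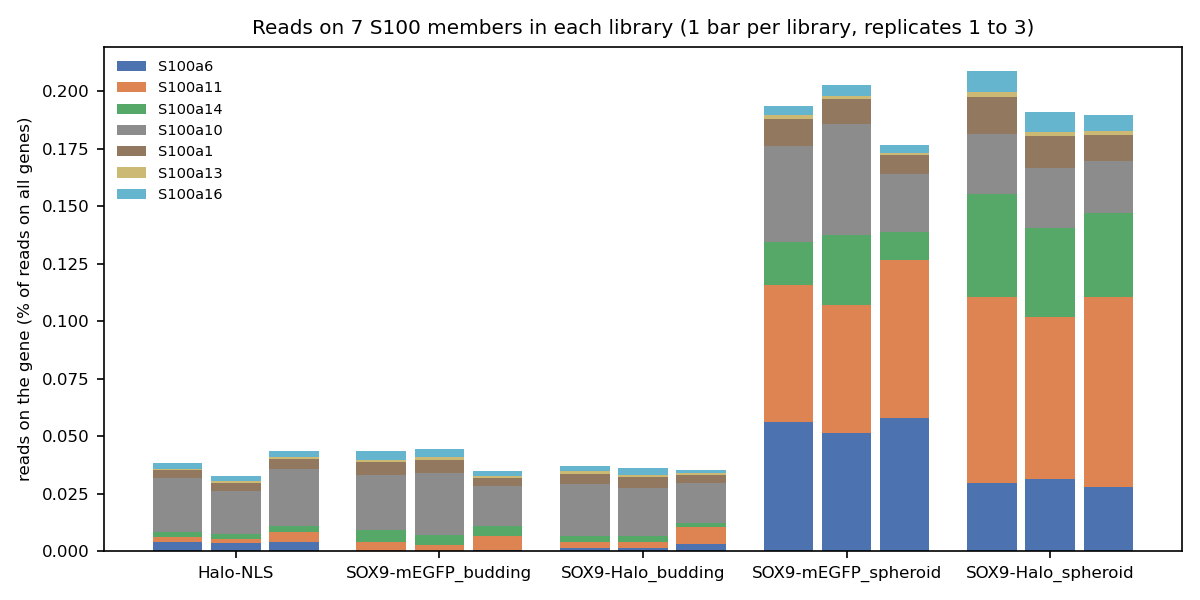
Share of the reads on all genes (vertical axis, %) that fell on the 7 tested S100 members, with 1 stacked bar for each of the 15 libraries and 1 color for each gene. Bars reach 0.0325 to 0.0444% in Halo-NLS and budding libraries, where S100a10 is the largest segment, and 0.176 to 0.209% in spheroids, where S100a11 is the largest.

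Against Halo-NLS, 6 of the 7 tested members were called in SOX9-Halo_spheroid, all of them higher, compared with 13.6% of all tested genes called higher. In SOX9-mEGFP_spheroid 4 of 7 were called, all higher, compared with 15.3% of all tested genes. The median log2 fold change of the 7 members was 1.53 and 1.14 in these 2 comparisons, while that of all tested genes was -0.01 and 0.03. In the budding lines 1 of 7 members, S100a6, was called and it was lower, compared with 1.26% of all tested genes called lower in SOX9-Halo_budding and 0.763% in SOX9-mEGFP_budding. No member was called higher there, compared with 2.49% and 1.99% of all tested genes. The member medians there were -0.36 and 0.14, and those of all tested genes were 0.01 and 0.03. These 4 comparisons share the Halo-NLS libraries. Within each line, spheroids against budding organoids gave 6 of 7 members higher for SOX9-Halo (10.5% of all tested genes) and 4 of 7 higher for SOX9-mEGFP (8.55%), by name the same genes as against Halo-NLS in each line. None was called lower, compared with 14.7% and 7.88% of all tested genes.

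S100a6 encodes calcyclin, which is named for its link to the cell cycle and binds several annexins. It was the only member called in opposite directions in budding organoids and spheroids. Its normalized counts were 1509.5, 1369 and 1532 in the 3 Halo-NLS libraries, 432, 457 and 867 in SOX9-Halo_budding and 64.4, 59.2 and 83.3 in SOX9-mEGFP_budding. They were 9888, 9958 and 8656 in SOX9-Halo_spheroid and 18121, 16674 and 18832 in SOX9-mEGFP_spheroid. The 5 conditions thus formed a ladder with no overlap between neighbors, from SOX9-mEGFP_budding at the bottom through SOX9-Halo_budding, Halo-NLS and SOX9-Halo_spheroid to SOX9-mEGFP_spheroid. The fall in SOX9-mEGFP_budding was 21.2-fold (log2 fold change -4.41, standard error 0.27, edgeR adjusted p = 4.5e-07). In SOX9-Halo_budding it was 2.51-fold (log2 fold change -1.33, standard error 0.24, edgeR adjusted p = 0.00348). This second call was lost in 5 of 21 alternative analyses, namely with library sizes alone (edgeR adjusted p = 0.0181), with only the libraries compared (adjusted p = 0.098) and without Halo-NLS replicate 2, Halo-NLS replicate 3 or SOX9-Halo_budding replicate 1. The rise against Halo-NLS was 6.46-fold in SOX9-Halo_spheroid (log2 fold change 2.69, standard error 0.25, edgeR adjusted p = 4.9e-07) and 12.2-fold in SOX9-mEGFP_spheroid (log2 fold change 3.60, standard error 0.26, edgeR adjusted p = 1.1e-07). From budding to spheroid the SOX9-mEGFP line rose 258-fold (log2 fold change 8.01, standard error 0.32, edgeR adjusted p = 3.3e-09) and the SOX9-Halo line 16.2-fold (log2 fold change 4.02, standard error 0.26, edgeR adjusted p = 2.4e-08).

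S100a11, whose protein is a partner of annexin A1 well known from keratinocytes, showed the largest rise of any member against Halo-NLS in both spheroid lines. Its normalized counts were 778, 731 and 1699 in Halo-NLS, 909, 897 and 2189 in SOX9-Halo_budding and 1306, 911 and 1898 in SOX9-mEGFP_budding, ranges that overlap one another. They were 26842, 22313 and 25566 in SOX9-Halo_spheroid and 19319, 18205 and 22487 in SOX9-mEGFP_spheroid, all above every other library. The rise was 23.3-fold (log2 fold change 4.54, standard error 0.44, edgeR adjusted p = 7.8e-07) and 18.7-fold (log2 fold change 4.23, standard error 0.43, edgeR adjusted p = 2.4e-06). In the budding lines the differences from Halo-NLS were 0.32 and 0.36 on the log2 scale for SOX9-Halo and SOX9-mEGFP, with standard errors of 0.38 and 0.38, and the former turned to -0.20 without SOX9-Halo_budding replicate 3. Replicate 3 held the highest raw S100a11 count of its condition in every condition. By normalized count this was so in every condition but SOX9-Halo_spheroid. The ratio of S100a6 to S100a11 reads went from 1.57 ± 0.58 in Halo-NLS to 0.460 ± 0.058 in SOX9-Halo_budding and 0.0527 ± 0.011 in SOX9-mEGFP_budding, and was 0.384 ± 0.056 and 0.897 ± 0.053 in SOX9-Halo_spheroid and SOX9-mEGFP_spheroid.

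S100a14, whose protein is found mainly in epithelia, rose in both spheroid lines. Normalized counts were 917, 788 and 1061 in Halo-NLS, 741, 848 and 563 in SOX9-Halo_budding and 1843, 1493 and 1242 in SOX9-mEGFP_budding. They reached 14886, 12223 and 11312 in SOX9-Halo_spheroid and 6117, 9938 and 4060.1 in SOX9-mEGFP_spheroid, again without overlap with the other conditions or with each other. The change against Halo-NLS was 13.9-fold in SOX9-Halo_spheroid (log2 fold change 3.80, standard error 0.31, edgeR adjusted p = 1.7e-07) and 7.27-fold in SOX9-mEGFP_spheroid (log2 fold change 2.86, standard error 0.30, edgeR adjusted p = 3.2e-06). From budding to spheroid it was 17.8-fold (log2 fold change 4.16, standard error 0.32, edgeR adjusted p = 9.8e-08) and 4.39-fold (log2 fold change 2.14, standard error 0.29, edgeR adjusted p = 5.7e-05). SOX9-mEGFP_budding lay above Halo-NLS in all 3 libraries, but this difference was not called (log2 fold change 0.73, standard error 0.28, edgeR adjusted p = 0.0876).

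**Figure D2:**
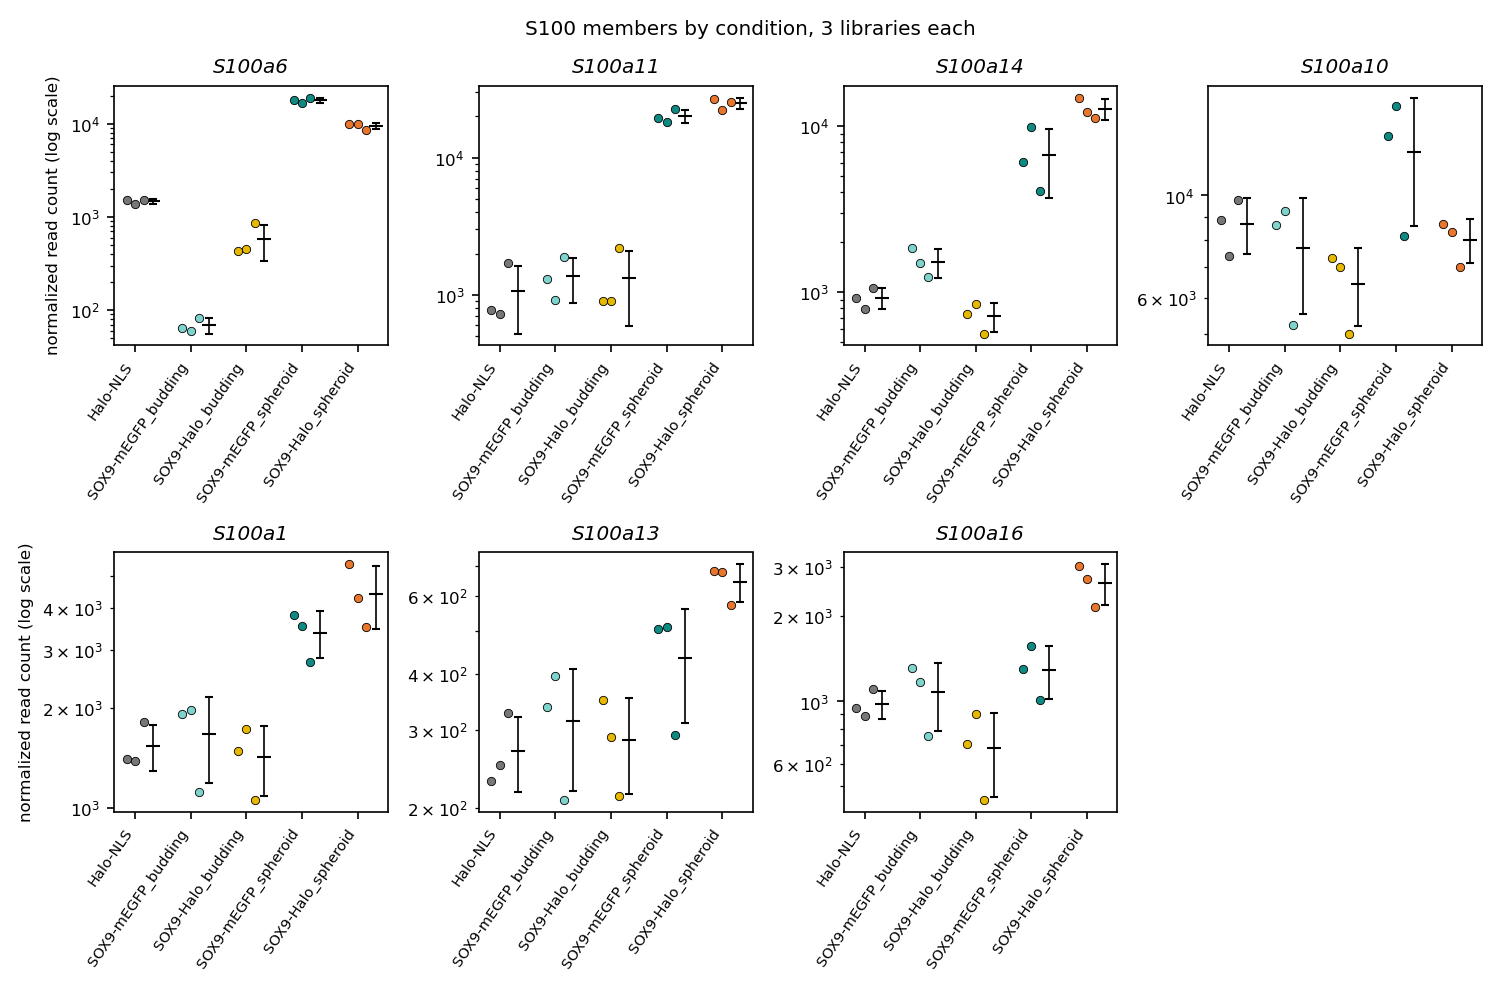
Normalized read counts (vertical axes, log scale) of the 7 tested members in each library, with 1 panel per gene, 1 point per library and the mean ± SD of 3 libraries as a bar beside the points. S100a6 lies between 59.2 and 83.3 in SOX9-mEGFP_budding and between 16674 and 18832 in SOX9-mEGFP_spheroid, S100a11 and S100a14 separate spheroids from all other libraries, and the conditions overlap for S100a10.

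S100a10, the annexin A2 partner, was the member with the most reads in Halo-NLS and was not called in any of the 8 comparisons between conditions. Its normalized counts were 8835, 7408 and 9788 in Halo-NLS, 7316, 6988 and 5019 in SOX9-Halo_budding, 8629, 9249 and 5227 in SOX9-mEGFP_budding, 8682, 8335 and 7011 in SOX9-Halo_spheroid and 13479, 15657 and 8156 in SOX9-mEGFP_spheroid. Every condition overlapped its neighbor in the order of the means, although SOX9-Halo_budding lay below Halo-NLS in all libraries. Against Halo-NLS the difference was -0.12 ± 0.26 (standard error) on the log2 scale in SOX9-Halo_spheroid and 0.52 ± 0.26 in SOX9-mEGFP_spheroid (edgeR adjusted p = 0.743 and 0.114). With library sizes alone, which puts the median of all tested genes at 0.28 in the first of these comparisons, the first difference was 0.17. Its neighbor S100a11, 26.92 kb away, rose in the same libraries.

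S100a1, best known from heart muscle, S100a13, involved in the release of growth factors that lack a signal peptide, and S100a16, a widely expressed member, were called higher in SOX9-Halo_spheroid by smaller amounts. For S100a1 the normalized counts were 1402, 1385 and 1809 in Halo-NLS, 1482, 1729 and 1055 in SOX9-Halo_budding, 1918, 1975 and 1112 in SOX9-mEGFP_budding, 5429, 4309 and 3509 in SOX9-Halo_spheroid and 3819.6, 3543 and 2762 in SOX9-mEGFP_spheroid, with both spheroid lines above all other libraries. The difference from Halo-NLS was 1.53 ± 0.26 (log2 ± standard error, edgeR adjusted p = 0.00023) and 1.14 ± 0.26 (adjusted p = 0.0025). The SOX9-mEGFP call was lost without Halo-NLS replicate 2, SOX9-mEGFP_spheroid replicate 1 or SOX9-mEGFP_spheroid replicate 2 (highest adjusted p = 0.012). Against budding organoids the SOX9-Halo line rose by 1.63 ± 0.26 (adjusted p = 0.00014) and the SOX9-mEGFP line by 1.02 ± 0.26 (adjusted p = 0.00808), and the latter call was lost in 13 of 21 alternatives, among them DESeq2 (log2 fold change 0.99) and without SOX9-mEGFP_budding replicate 3 (log2 fold change 0.75, adjusted p = 0.0547).

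For S100a13 the normalized counts were 230.0, 250.2 and 327 in Halo-NLS, 351, 289 and 213 in SOX9-Halo_budding, 338, 397 and 209 in SOX9-mEGFP_budding, 682, 677 and 572 in SOX9-Halo_spheroid and 505, 509.7 and 291 in SOX9-mEGFP_spheroid. Only SOX9-Halo_spheroid stood clear of all other conditions. It was called against Halo-NLS (log2 fold change 1.26, standard error 0.30, edgeR adjusted p = 0.00264), a call lost without Halo-NLS replicate 2 (adjusted p = 0.0113) or without SOX9-Halo_spheroid replicate 2, and against SOX9-Halo_budding (log2 fold change 1.18, standard error 0.29, edgeR adjusted p = 0.00448), a call lost in 5 of 22 alternatives, each of which left out SOX9-Halo_budding replicate 2 or 3 or a SOX9-Halo_spheroid library (highest adjusted p = 0.0211). The SOX9-mEGFP_spheroid difference from Halo-NLS was not called (log2 fold change 0.69, standard error 0.29, edgeR adjusted p = 0.0613). Reads on S100a13 per read on the antisense gene S100a1 were 0.175 ± 0.0096 in Halo-NLS, 0.202 ± 0.035 in SOX9-Halo_budding, 0.188 ± 0.012 in SOX9-mEGFP_budding, 0.149 ± 0.02 in SOX9-Halo_spheroid and 0.127 ± 0.02 in SOX9-mEGFP_spheroid, and reads from shared exons are in neither count.

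S100a16 had normalized counts of 950.2, 887 and 1104 in Halo-NLS, 708, 901 and 448 in SOX9-Halo_budding, 1316, 1168 and 752 in SOX9-mEGFP_budding, 3011, 2712 and 2158 in SOX9-Halo_spheroid and 1305, 1569 and 1015 in SOX9-mEGFP_spheroid. As for S100a13, the SOX9-Halo_spheroid libraries lay above all others, while SOX9-mEGFP_spheroid overlapped Halo-NLS. The rise in SOX9-Halo_spheroid was 2.68-fold against Halo-NLS (log2 fold change 1.42, standard error 0.28, edgeR adjusted p = 0.00065) and 3.83-fold against SOX9-Halo_budding (log2 fold change 1.94, standard error 0.28, edgeR adjusted p = 5.2e-05). In SOX9-mEGFP_spheroid the difference from Halo-NLS was 0.40 ± 0.27 (log2 ± standard error, edgeR adjusted p = 0.232).

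**Figure D3:**
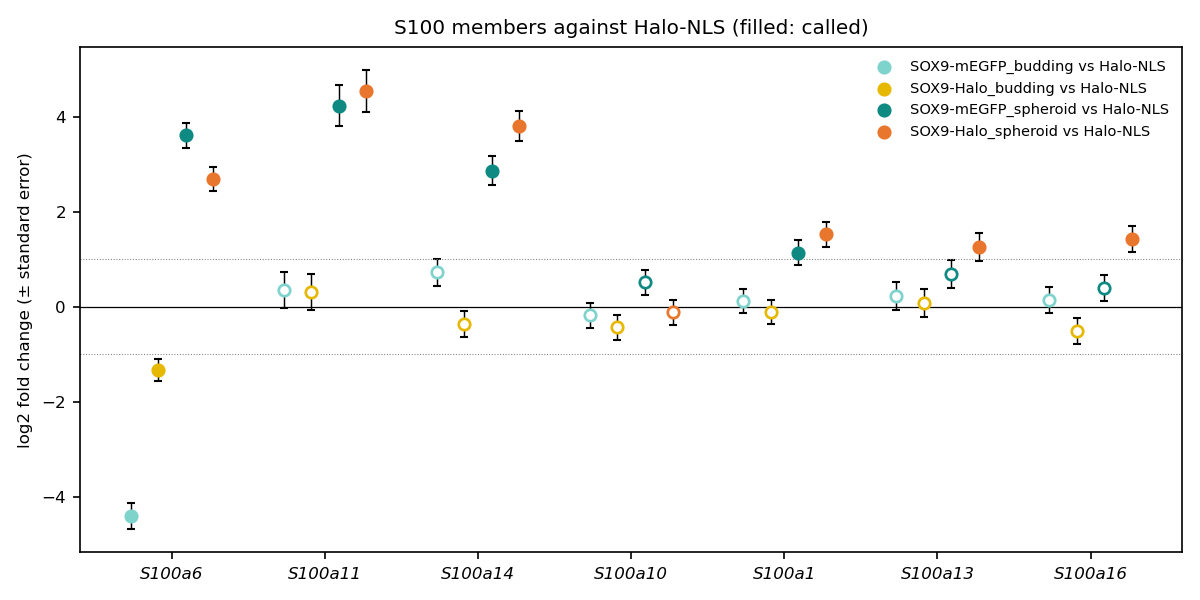
Log2 fold change against Halo-NLS (vertical axis) of the 7 tested members in the 4 SOX9 conditions, with standard errors as bars, filled points for called changes and dotted lines at log2 fold changes of 1 and -1. S100a6 runs from -4.41 in SOX9-mEGFP_budding to 3.60 in SOX9-mEGFP_spheroid, whereas the other members lie between -0.52 and 0.73 in both budding lines.

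S100a4, S100a8 and S100a9 were at or near 0. S100a4, a partner of non-muscle myosin studied in metastasis, had counts of 4, 5 and 1 in SOX9-Halo_spheroid and at most 1 in every other library. S100a8 had counts of 8, 3 and 1 in SOX9-mEGFP_spheroid and 0 in the other 12 libraries, and S100a9 at most 3, likewise highest in SOX9-mEGFP_spheroid (3, 1 and 0). Finding no read still leaves room for up to 3, or 0.074 to 0.107 CPM at the depth of these libraries, so levels below that were not detectable, and no fold change was computed for these genes. The summed level of 12 myeloid and neutrophil markers was 5.11 to 11.6 CPM in Halo-NLS and budding libraries, 16.7 to 28.1 in SOX9-Halo_spheroid and 40.3 to 45.4 in SOX9-mEGFP_spheroid. Of these markers Cd14 averaged 149 ± 65.4 normalized counts in Halo-NLS, 504 ± 135 in SOX9-Halo_spheroid and 1223 ± 70.8 in SOX9-mEGFP_spheroid, and Cd68 averaged 27.4 ± 6.67, 166 ± 91.3 and 163 ± 38.1. Lyz2, in contrast, was at most 1 count in any spheroid library and Csf3r, Elane and Mpo, which define neutrophils and their precursors, had at most 3 counts in any library. Ly6g, on the same list, had up to 6 counts in SOX9-mEGFP_spheroid and in SOX9-mEGFP_budding. Ptprc had 1 to 5 counts in SOX9-mEGFP_spheroid and 0 to 17 in Halo-NLS. In all, 6 of the 12 markers had at most 3 counts in each SOX9-mEGFP_spheroid library and 9 of the 12 in each SOX9-Halo_spheroid library. The part of such cells in the S100a8 counts was not tested. Summed fibroblast markers were 1.19 to 2.07 CPM in spheroids and 2.36 to 9.15 in the other libraries, Schwann and glial markers 0.116 to 1.4, endothelial markers 0.0356 to 1.14 and lymphoid markers 0.0307 to 1.62 over all libraries. In bulk RNA, more cells of a type and more RNA per cell cannot be told apart.

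Some members differed between the SOX9-Halo and SOX9-mEGFP lines, in which the tag and the line cannot be told apart. The spheroid lines also differ in the H2B transgene, and the paper places the SOX9 conditions at different times in culture. Between the 2 budding lines 1 of 7 members, S100a6, was called, higher in SOX9-Halo_budding, compared with 0.29% of all tested genes called higher and 0.165% called lower (log2 fold change 3.08, standard error 0.26, edgeR adjusted p = 1.6e-05). That call was lost when only these 6 libraries were fitted (adjusted p = 0.0192). S100a14 was lower in all SOX9-Halo_budding libraries than in all SOX9-mEGFP_budding libraries but was not called (log2 fold change -1.09, standard error 0.28, edgeR adjusted p = 0.101), and it passed when no low-count filter was used (adjusted p = 0.00975). Between the 2 spheroid lines edgeR called 0 of 7 members, whereas 3.59% and 9.58% of all tested genes were called higher and lower in SOX9-Halo_spheroid. At an unadjusted p under 0.05, 2 members were higher and 2 lower, and DESeq2 called 1, S100a16, higher. Shares of all tested genes by these 2 rules are not given here, so these counts have no background to compare with. S100a6 was lower in all SOX9-Halo_spheroid libraries, with an adjusted p inside and a fold outside the thresholds (log2 fold change -0.91, standard error 0.23, edgeR adjusted p = 0.00991). S100a16 was higher in all of them, with the fold inside and the adjusted p outside (log2 fold change 1.02, standard error 0.28, edgeR adjusted p = 0.0134), and was called in 8 of 21 alternatives. S100a14 was higher in all of them as well (log2 fold change 0.93, standard error 0.28, edgeR adjusted p = 0.0251).

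The change from budding organoid to spheroid was compared between the lines with an interaction term, SOX9-Halo minus SOX9-mEGFP. Tag, line, H2B transgene and time in culture cannot be told apart there either. Of 7 members 2 were called positive, S100a14 and S100a16 (1.81% of all tested genes), and 1 negative, S100a6 (5.58%). S100a6 rose less in the SOX9-Halo line, with a difference of -3.99 on the log2 scale (standard error 0.35, edgeR adjusted p = 2.5e-06), a call kept in all 21 alternatives. S100a14 rose more in the SOX9-Halo line (log2 fold change 2.02, standard error 0.40, edgeR adjusted p = 0.00299), a call lost without SOX9-mEGFP_spheroid replicate 1 (adjusted p = 0.0119). S100a16 also rose more (log2 fold change 1.67, standard error 0.39, edgeR adjusted p = 0.00905), but that call was lost in 15 of 21 alternatives, among them leaving out any 1 of 13 libraries. For the 4 other members the interaction ran from -0.38 for S100a10 to 0.71 for S100a13, with standard errors between 0.37 and 0.54. Sox9 itself differed between budding and spheroid by 1.10 ± 0.55 (log2 ± standard error) in the SOX9-Halo line and 0.77 ± 0.55 in the SOX9-mEGFP line, with overlap and no call.

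Levels of different members can be compared only per length of transcript, and for the 5 tested members free of shared exons the order depended on the length used. With the length of the canonical transcript S100a10 led in Halo-NLS at 65.0 ± 9.0 RPKM (CPM divided by the length in kb), followed by S100a6 at 48.3 ± 3.3. By the same length S100a6 led in SOX9-mEGFP_spheroid at 705 ± 43 and in SOX9-Halo_spheroid at 381 ± 22. In SOX9-Halo_spheroid the libraries of S100a14, at 346 ± 37, overlapped those of S100a6. Those of S100a11, at 335 ± 28, overlapped S100a14 but not S100a6. With the length of all annotated exons, S100a11 led in SOX9-Halo_spheroid at 292 ± 25 and lay at 230.0 ± 25.0 beside S100a6 at 234 ± 14 in SOX9-mEGFP_spheroid. S100a10 led in Halo-NLS and both budding lines by either length, and S100a16 was last in both spheroid lines.

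S100g, S100a5 and S100b, which are outside the 10 members, followed other patterns. Of 10 further genes 8 were listed and 3 tested. S100g, on chromosome X, had normalized counts of 2721, 2771 and 7331 in Halo-NLS, 3170.3, 2237 and 3116 in SOX9-Halo_budding and 635, 1060.2 and 789.5 in SOX9-mEGFP_budding, but 14.2, 2.84 and 15.3 in SOX9-Halo_spheroid and 8.87, 12.0 and 3.81 in SOX9-mEGFP_spheroid. Spheroids thus held 3 to 17 raw counts of the gene per library, and it was called lower in both (log2 fold change -8.63, standard error 0.61, edgeR adjusted p = 4e-08, and log2 fold change -9.00, standard error 0.63, edgeR adjusted p = 8.6e-08). It was also called lower in SOX9-mEGFP_budding (log2 fold change -2.37, standard error 0.44, edgeR adjusted p = 0.00459), a call lost in 5 of 21 alternatives, among them without Halo-NLS replicate 3. S100a5, which lies just before S100a6 on the chromosome, had 8 to 25 raw counts in Halo-NLS and budding libraries, 3, 4 and 1 in SOX9-mEGFP_spheroid and 1, 0 and 0 in SOX9-Halo_spheroid, and was called lower in both spheroid lines where its neighbor S100a6 was called higher. Both S100a5 calls were lost when only the libraries compared were fitted. S100a5 passed the low-count filter only through Halo-NLS and budding libraries, so in spheroids it could only be called lower. S100b, on chromosome 10 and best known from glia, had normalized counts of 61.4, 44.8 and 15.1 in Halo-NLS, 687, 633 and 1142 in SOX9-Halo_budding, 321, 265 and 81.8 in SOX9-mEGFP_budding, 1244, 812 and 388 in SOX9-mEGFP_spheroid and 29.6, 13.2 and 9.00 in SOX9-Halo_spheroid. It was called higher in SOX9-Halo_budding (log2 fold change 4.34, standard error 0.65, edgeR adjusted p = 0.00113) and SOX9-mEGFP_spheroid (log2 fold change 4.33, standard error 0.65, edgeR adjusted p = 8.3e-05) and lower in SOX9-Halo_spheroid than in SOX9-Halo_budding (log2 fold change -5.59, standard error 0.70, edgeR adjusted p = 1.1e-05). The first of these calls was lost when only the libraries compared were fitted. The glial markers Sox10 and Gfap had at most 3 counts in any library. S100a2, S100a3, S100a7a, S100a7l2 and S100z had at most 18 counts in any library.

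**Figure D4:**
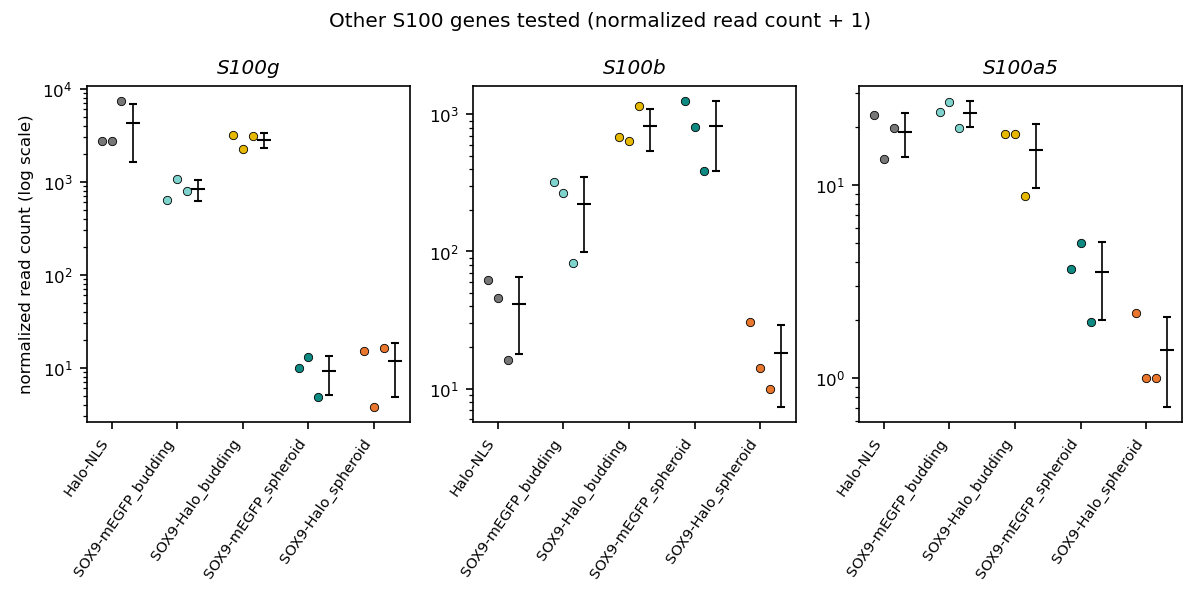
Normalized read count plus 1 (vertical axes, log scale) of S100g, S100b and S100a5 in each library, with 1 point per library and the mean ± SD of 3 libraries beside the points. S100g lies between 2.84 and 15.3 normalized counts in spheroids and between 635 and 7331 elsewhere, and S100b separates SOX9-mEGFP_spheroid (388 to 1244) from SOX9-Halo_spheroid (9.00 to 29.6).

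Genes for known partners of S100 proteins were called more often higher than lower in spheroids. Of 17 partners 16 were tested, and 6 were called higher and 2 lower in SOX9-Halo_spheroid against Halo-NLS and 8 were called, all higher, in SOX9-mEGFP_spheroid, with list medians of 0.38 and 0.93. Of all tested genes, 13.6% were called higher and 15.3% lower in SOX9-Halo_spheroid, and 15.3% higher and 12.1% lower in SOX9-mEGFP_spheroid. Anxa1, which encodes the S100A11 partner annexin A1, averaged 108 ± 39.1 normalized counts in Halo-NLS, 34257 ± 1468 in SOX9-Halo_spheroid and 15529 ± 3999 in SOX9-mEGFP_spheroid (log2 fold changes 8.31 and 7.17, edgeR adjusted p = 2.1e-07 and 1.1e-06). Anxa2, for the S100A10 partner, averaged 26782 ± 2072, 30590.4 ± 4423 and 55187 ± 2728, and was called in SOX9-mEGFP_spheroid (log2 fold change 1.04, standard error 0.25, edgeR adjusted p = 0.003, lost in 5 of 21 alternatives) but not in SOX9-Halo_spheroid (log2 fold change 0.19, standard error 0.24, edgeR adjusted p = 0.541). Anxa5, Anxa6, Ahnak, Iqgap1 and the p53 ligase gene Mdm2 were called higher in both. Nucb1, for a Golgi calcium-binding protein, was called lower in SOX9-Halo_spheroid (log2 fold change -1.39, standard error 0.25, edgeR adjusted p = 0.0003), and the non-muscle myosin gene Myh9 was called in neither (log2 fold changes 0.50 and 0.82). Tgm2 was called lower in SOX9-Halo_spheroid but higher in SOX9-mEGFP_spheroid. In the budding lines edgeR called 0 of the 16. The shares of all tested genes called higher and lower were 2.49% and 1.26% in SOX9-Halo_budding and 1.99% and 0.763% in SOX9-mEGFP_budding. At an unadjusted p under 0.05 stood 7 partners in SOX9-Halo_budding (3 higher and 4 lower) and 5 in SOX9-mEGFP_budding (4 higher and 1 lower). DESeq2 called 0 and 1. Shares of all tested genes by these 2 rules are not given here.

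Of 10 genes for S100 receptors and surface partners, 7 were tested. In each spheroid line 3 were called higher against Halo-NLS, Alcam, Mcam and Tlr4, and 2 lower, Cd36 and Scarb1, compared with 13.6% of all tested genes higher and 15.3% lower in SOX9-Halo_spheroid and 15.3% and 12.1% in SOX9-mEGFP_spheroid. The list medians were 0.24 and 0.96. Mcam, for an adhesion molecule that binds S100A8 and S100A9, averaged 45.7 ± 10.5 normalized counts in Halo-NLS, 5067 ± 874 in SOX9-Halo_spheroid and 493 ± 105 in SOX9-mEGFP_spheroid. Its log2 fold changes were 6.79 and 3.43 (edgeR adjusted p = 1.4e-07 and 4.8e-05), and it was called higher in SOX9-Halo_spheroid than in SOX9-mEGFP_spheroid (log2 fold change 3.36, standard error 0.46, edgeR adjusted p = 6.6e-05). Alcam, for an adhesion molecule of the same family, was lower in SOX9-Halo_spheroid than in SOX9-mEGFP_spheroid (log2 fold change -1.56, standard error 0.27, edgeR adjusted p = 0.00056), with 1303 ± 155 and 3836 ± 432 normalized counts in SOX9-Halo_spheroid and SOX9-mEGFP_spheroid and 446 ± 224 in Halo-NLS. Scarb1, for a lipoprotein receptor, fell in both lines (log2 fold changes -2.19 and -2.13, edgeR adjusted p = 8.9e-05 and 0.00015). Bsg, the most abundant of the list, was called in neither (log2 fold changes 0.24 and 0.96). In the budding lines edgeR called 0 of the 7. All tested genes were called higher and lower at 2.49% and 1.26% in SOX9-Halo_budding and at 1.99% and 0.763% in SOX9-mEGFP_budding. In each budding line 4 receptor genes stood at an unadjusted p under 0.05 (3 higher and 1 lower). DESeq2 called 1 higher and 1 lower in SOX9-Halo_budding and 2 higher in SOX9-mEGFP_budding. Shares of all tested genes by these 2 rules are not given here.

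The epidermal differentiation complex is the chromosome 3 cluster of cornified envelope and fused S100 genes between S100a9 and S100a11. Of 29 of its genes in the files 10 were tested, of which 4 were called, all higher, in SOX9-Halo_spheroid against Halo-NLS (Crct1, Ivl, Sprr1a and Tchh) and 7 in SOX9-mEGFP_spheroid (also Sprr2a1, Sprr2a2 and Sprr2f), with list medians of 1.00 and 2.93. The share of all tested genes called higher was 13.6% and 15.3%. Sprr genes are close copies of each other and the alignment kept only reads with a single match, so reads that fit several copies are missing from their counts. Sprr1a averaged 81.2 ± 6.7 normalized counts in Halo-NLS, 1339 ± 865 in SOX9-Halo_spheroid and 1436 ± 834 in SOX9-mEGFP_spheroid (log2 fold changes 4.04 and 4.14, edgeR adjusted p = 9.8e-05 and 0.00011). Ivl, for involucrin, averaged 1.26 in Halo-NLS, 1767 ± 887 in SOX9-Halo_spheroid and 92.0 ± 8.66 in SOX9-mEGFP_spheroid. With 0 to 3 raw counts in Halo-NLS and budding libraries, Ivl passed the low-count filter only through spheroids. It could therefore only be called higher, and the counts of 4 and 7 include it. Tchh was the 1 gene of the list called in SOX9-Halo_budding. It was higher there, where 2.49% of all tested genes were called higher. Sprr2a3, the most abundant of the 10, was called in neither spheroid line (log2 fold changes -1.10 and 0.25).

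Other EF-hand genes were called in both directions. Of 29 genes 24 were tested, and against Halo-NLS 5 were called higher and 8 lower in SOX9-Halo_spheroid and 6 higher and 2 lower in SOX9-mEGFP_spheroid, with list medians of -0.60 and -0.19. Of all tested genes, 13.6% were called higher and 15.3% lower in the former and 15.3% and 12.1% in the latter. Calm3, for a calcium sensor, averaged 31352 ± 10370.0 normalized counts in Halo-NLS and 9035 ± 1025 in SOX9-Halo_spheroid, where it was called lower (log2 fold change -1.79, standard error 0.23, edgeR adjusted p = 1.6e-05). It was also called lower in SOX9-mEGFP_spheroid (log2 fold change -1.11, standard error 0.23, edgeR adjusted p = 0.00122), a call lost with library sizes alone or without Halo-NLS replicate 3. Myl6, a myosin light chain gene, was called in neither (log2 fold changes -0.64 and -0.64). Capn2, Calu, Chp1, Nucb2 and Rcn2 were called higher in both spheroid lines. In the budding lines Rcn1 was called higher in both and Nucb2 in SOX9-Halo_budding. The share of all tested genes called higher was 2.49% in SOX9-Halo_budding and 1.99% in SOX9-mEGFP_budding.

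Of 26 other tested genes that start within 500 kb of a member, 2 were called higher (Crct1 and Tchh) and 1 lower (S100a5) in SOX9-Halo_spheroid, and 2 higher (the same genes) and 3 lower (S100a5, Dennd4b and Rps27) in SOX9-mEGFP_spheroid. Of all tested genes, 13.6% and 15.3% were called higher and 15.3% and 12.1% lower in these comparisons. The median log2 fold change of the 26 genes was 0.08 and -0.18, compared with 1.53 and 1.14 for the 7 members. Rps27, a ribosomal protein gene and the most abundant of them, differed by -0.97 ± 0.29 (log2 ± standard error, edgeR adjusted p = 0.0128) and -1.21 ± 0.29 (adjusted p = 0.0036) in SOX9-Halo_spheroid and SOX9-mEGFP_spheroid, and the latter call was lost in 5 of 21 alternatives, among them library sizes alone and only the libraries compared. Tpm3, for a tropomyosin, differed by 0.06 ± 0.16 and -0.25 ± 0.17 and was called in neither.

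**Figure D5:**
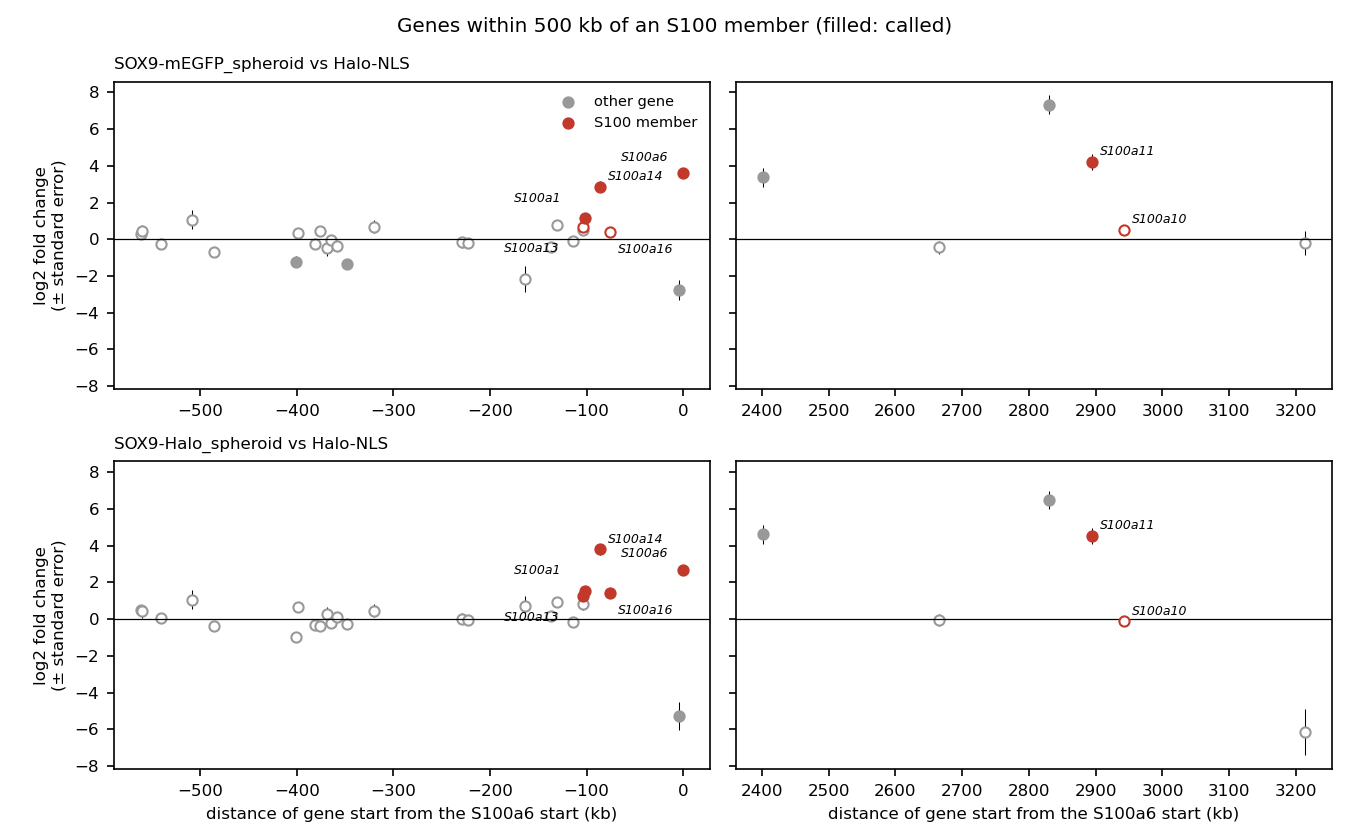
Log2 fold change against Halo-NLS (vertical axes, with standard errors) of tested genes within 500 kb of an S100 member, by the distance of their start from the S100a6 start (horizontal axes, kb), for SOX9-mEGFP_spheroid (top) and SOX9-Halo_spheroid (bottom) and with the S100a6 group at the left and the S100a11 group at the right. Red points are S100 members, gray points other genes and filled points called changes; S100a14 and S100a6 stand above the other genes on the left, and on the right S100a11 lies above S100a10 while Crct1 and Tchh are also called higher (the fitted size for genes with few reads in a condition, such as S100a5, is imprecise).

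Across the 15 libraries the log2 levels of the members were positively correlated with each other, with Pearson r from 0.363 to 0.952 over 21 pairs. The points share conditions and libraries, so these values describe the data and were not tested. Over 11047 genes averaging at least 100 normalized counts, the closest to S100a11 were Crip2 (r = 0.993) and Npnt (r = 0.993), to S100a14 Cers3 (r = 0.978) and Cd99l2 (r = 0.972), and to S100a6 Slc50a1 (r = 0.957) and Capg (r = 0.943). For S100a1 they were Ctsh (r = 0.952) and Cers3 (r = 0.951), for S100a16 Pmm1 (r = 0.958) and Paqr7 (r = 0.939), and for S100a13 Ikbkg (r = 0.910) and Tmsb4x (r = 0.908). The closest to S100a10 were Epb41l4aos (r = 0.901) and Sat1 (r = 0.876).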

How the data were processed

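Poly-A RNA sequencing had been done on 15 mouse small intestinal organoid libraries, 3 for each of 5 conditions. The authors trimmed reads with cutadapt (4.5), aligned them with STAR, keeping reads with a single match, and counted them per gene with HTSeq (2.0.2, per the submitters' processing notes), and deposited raw counts per gene for each library. Counting was not stranded, so reads on exons shared by genes are ambiguous and uncounted, 9.65 to 13.6% of reads per library, and 1.83 to 6.09% lay on no feature. These rows were left out of library sizes, which were 28062722 to 40559766 reads on genes. Identifiers were matched to GENCODE M39 for symbols and positions, with 78168 of 78298 found.

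Counts were analyzed in R (4.3.3) with edgeR (4.0.16): TMM scaling, a low-count filter by condition, 1 coefficient per condition over all 15 libraries and the quasi-likelihood F test, with Benjamini-Hochberg adjustment over 17560 genes. The common biological coefficient of variation was 0.302. Standard errors were taken as the size of the log2 change over the root of its F value. The script was tested on simulated data. Floors cover counting error only. Alternatives were RLE scaling, library sizes alone, no low-count filter, adjusted p alone, DESeq2 (1.42.0), only the libraries compared, the replicate number as a block, and each library left out. A block within the SOX9-Halo line was added after seeing the data: same-numbered SOX9-Halo_budding and SOX9-Halo_spheroid libraries deviated together (r = 0.403, 0.234 and 0.344 over 11054 genes), the only pair of conditions with r over 0.1 for all 3 numbers.

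The members and all gene lists were chosen with earlier results of these data known. Beside the members, the text names the most abundant genes of each list, the genes called in small counts and, for each member, the genes most like it across libraries. Promoters came from RefSeq (GRCm38.p6). S100a15a and S100a17 were not analysed here, and the values of 1 EF-hand gene are not reported here. Figures were drawn with matplotlib (3.10.9).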

Additional observations from a re-analysis of the deposited data

Results flagged for a closer look

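The change from budding organoid to spheroid differed between the SOX9-Halo and SOX9-mEGFP lines, by the interaction term of the edgeR fit (quasi-likelihood F test, Benjamini-Hochberg adjusted p), for 4 S100 genes. For S100a6 the difference, SOX9-Halo minus SOX9-mEGFP, was -3.99 on the log2 scale (adjusted p = 2.5e-06). For S100a14 it was 2.02 (adjusted p = 0.00299) and for S100a16 it was 1.67 (adjusted p = 0.00905, lost in 15 of 21 alternatives). For S100b, a gene outside the 10 members, it was -7.47 (adjusted p = 4.4e-05), a call kept in all 21 alternatives. The lines also differ in the H2B transgene of their spheroids, and its part was not tested.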

How the results depend on the processing

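Of 1330 values of members recomputed under the alternatives, 1259 kept their direction and side of the thresholds, 45 lost and 10 gained a call and 16 changed sign. With library sizes alone, which puts the median of all tested genes at 0.27 to 0.31 in comparisons with Halo-NLS, S100a10 turned to 0.17 in SOX9-Halo_spheroid and to 0.0386 in SOX9-mEGFP_budding, S100a1 to 0.18 in SOX9-Halo_budding, and S100a11 to 0.0326 between the budding lines. Leaving out 1 library in turn gave -0.268 to 0.0912 for S100a1, -0.20 to 0.82 for S100a11 and -0.0941 to 0.277 for S100a13 in SOX9-Halo_budding against Halo-NLS. It gave -0.308 to 0.0397 for S100a10 and -0.0238 to 0.339 for S100a16 in SOX9-mEGFP_budding, and -0.60 to 0.22 for S100a11 and -0.389 to 0.0802 for S100a13 between the budding lines. The number of members called lower in SOX9-Halo_budding against Halo-NLS went from 1 to 0 with library sizes alone or only the libraries compared, and was 0 to 1 with 1 library left out. Between the spheroid lines 1 member was called higher with library sizes alone, no low-count filter, the replicate block, only the libraries compared or DESeq2, 0 to 1 with 1 library left out, and 1 was lower by adjusted p alone. Between the budding lines the number higher went to 0 with only the libraries compared and the number lower to 1 with no low-count filter. For the difference between lines, 1 was called positive with RLE scaling or only the libraries compared, and 0 to 2 with 1 library left out. With the replicate number as a block within the SOX9-Halo line, where the pairing was seen, 6 members were called higher and no call changed. The cause of these shifts was not tested.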
